A study of Saccharomyces cerevisiae BY4741 with 66 samples.

Results

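The genes described here are 47 nuclear genes of Saccharomyces cerevisiae that encode the respiratory chain and the mitochondrial ATP synthase, of 6605 features listed in the deposited tables. They were chosen by a list of gene identifiers and not by a measured value. The list holds 5 genes of complex II (succinate dehydrogenase, counting its assembly factor SDH5), 9 of complex III (the cytochrome bc1 complex), 2 of cytochrome c, 9 of complex IV (cytochrome c oxidase), 15 of the ATP synthase and its inhibitors, 2 of the NADH dehydrogenases and 5 of factors that assemble complex IV.

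The respiratory chain passes electrons from NADH and succinate to oxygen and pumps protons out of the mitochondrial matrix, and the ATP synthase uses the returning protons to make ATP. In this yeast NADH dehydrogenases that pump no protons stand in for complex I, and a few core subunits of complexes III and IV and of the ATP synthase come from the mitochondrial genome. All other subunits are translated in the cytosol and imported, and many of their genes are known to be held down by glucose and induced when respiration is needed.

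Selective ribosome profiling compares an immunopurified (IP) translatome, the footprints of ribosomes retained by GFP antibody beads through a tagged subunit, with the total translatome, the footprints of all pelleted ribosomes. The labels do not say whether an IP and a total of one replicate number share a culture. The question of the study was which nascent chains are bound by subunits of protein complexes, and no tagged protein belongs to the respiratory chain, so these genes serve here as a functional group seen in every library. Of 66 samples, 50 had values per gene, 25 IPs and 25 totals of 15 strains, all labelled BY4741. In FAS1dMPT-GFP the tagged FAS1 lacks a segment of its MPT (malonyl/palmitoyl transferase) domain, in FAS1-GFP FAS2dMPT a segment of that domain is deleted from FAS2 and full-length FAS1 is tagged, and both strains grew with added fatty acids. TRP2-GFP and TRP3-GFP grew in SD-trp, medium without tryptophan, CPA1-GFP grew in SD-arg, medium without arginine, and FAS1-GFP, FAS2-GFP, GUS1-GFP, MES1-GFP, ARC1-GFP, PFK1-GFP, PFK2-GFP, SUI2-GFP, SUI3-GFP and GCD11-GFP grew in the rich medium YPD, all at 30 °C. The deletion strains had 4 totals, SD-trp 3, SD-arg 1 and YPD 17. Replicates numbered 2 exist for both fractions of 10 strains, and 5 strains have 1 pair. Nothing in the labels tells separate cultures from repeat libraries, so each p-value reflects the spread of these libraries only.

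The low value that most often recurs exactly among the features of a library was taken as 1 read. It implied 0.544 to 31.7 M reads per IP and 1.74 to 55.9 M reads per total. Levels are given as scaled RPM, the deposited RPM values (reads of a gene relative to the reads of its library) put on the sum over nuclear genes and a trimmed-mean factor. Before any result, 3 YPD totals stand apart from the rest: FAS1-GFP total 2, whose closest library was TRP3-GFP total 1 (r = 0.995 over all genes) and whose mating-type genes differ from those of its own IP, and GUS1-GFP total 1 and PFK1-GFP total 1, whose closest libraries were IPs of other strains (r = 0.963 each). The deletion calls, the IP medians over strains, and the summed levels and spreads in YPD are given with and without them. Other results, such as densities per kilobase and SD-trp differences, use them unless stated. Summed MATalpha-specific genes exceeded MATa-specific ones in 6 totals, those of FAS2-GFP and TRP2-GFP, FAS1-GFP total 1 and FAS1-GFP FAS2dMPT total 1, although BY4741 is a MATa strain. In TRP2-GFP the MATa-specific sum was 8.41 and 15.7 RPM over nuclear genes in the totals, against 514 and 518 in the IPs. Its MATalpha-specific sum was 2400 and 2327 in the totals, against 711 and 802 in the IPs. FAS2-GFP pair 2 differed less, with MATa-specific sums of 3.81 in the total and 203 in the IP. This limits what IP minus total means in TRP2-GFP, and its cause was not tested. The library FAS1-GFP FAS2dMPT IP 2 was closest to a FAS1dMPT-GFP total (r = 0.994), so which library of that pair is the IP is in doubt.

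Per kilobase of coding sequence, the catalytic beta subunit of the ATP synthase, ATP2, headed the order in YPD totals with a median of 486.5 scaled RPM per kb (368 to 686 over 17 totals). COX9 of complex IV came next (409) and then ATP1, the alpha subunit, at 390.1 (304 to 566). ATP1 and ATP2 are present in several copies per enzyme. Their density was 1.95 and 2.28 times that of ATP3, the gamma subunit of the central stalk, at the median over the totals (1.60 to 3.05 and 1.84 to 4.10). Without the 3 totals that stand apart it was 1.90 and 2.26 times (1.60 to 2.37 and 1.84 to 2.72). The peripheral stalk subunits ATP5, ATP7, ATP14 and ATP4 lay close to each other, at medians of 196, 171, 176 and 166 scaled RPM per kb, and their ranges overlapped. ATP15 and ATP16, the epsilon and delta subunits of the stalk, had 364 and 254, and the membrane subunits ATP17, ATP18, ATP19 and ATP20 had 315, 261, 174 and 102. The inhibitors of ATP hydrolysis were lower, STF1 at 70.6 and INH1 at 63.8.

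In complex IV the small subunits COX9, COX7, COX8 and COX13 had medians of 409, 249, 236 and 216 scaled RPM per kb, and COX5A, COX12, COX6 and COX4 lay between 139 and 179. Within complex III, QCR8 and QCR7 stood at 232 and 195, the core proteins COR1 and QCR2 at 128 and 120, and the redox subunits RIP1, the Rieske protein, and CYT1, cytochrome c1, at 84.0 and 56.2. COR1 and QCR2 had nearly equal densities, with a median ratio of 1.03 (0.859 to 1.496 over 17 totals). QCR6, QCR10 and QCR9 had 85.9, 75.6 and 57.1. Complex II was lower: its membrane anchors SDH3 and SDH4 had 123 and 80.7, the iron-sulfur subunit SDH2 had 50.1, the flavoprotein SDH1 had 34.0 and SDH5, which attaches the flavin to SDH1, had 31.3. The NADH dehydrogenases NDE1, facing outward, and NDI1, facing the matrix, had 68.2 and 25.6. The assembly factors spanned a wide range. The copper chaperone COX17 had 124 and CMC1 had 57.0, while SCO1 and COX11, which deliver copper to the oxidase, and COX10, which makes heme A, had 25.4, 11.9 and 8.39. Neighbours in this order overlapped in their ranges. COX4 is listed over 822 bases in the files and has 468 in RefSeq, and the lengths of QCR9, QCR10 and COX5B include an intron, so their densities are uncertain.

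**Figure D1:**
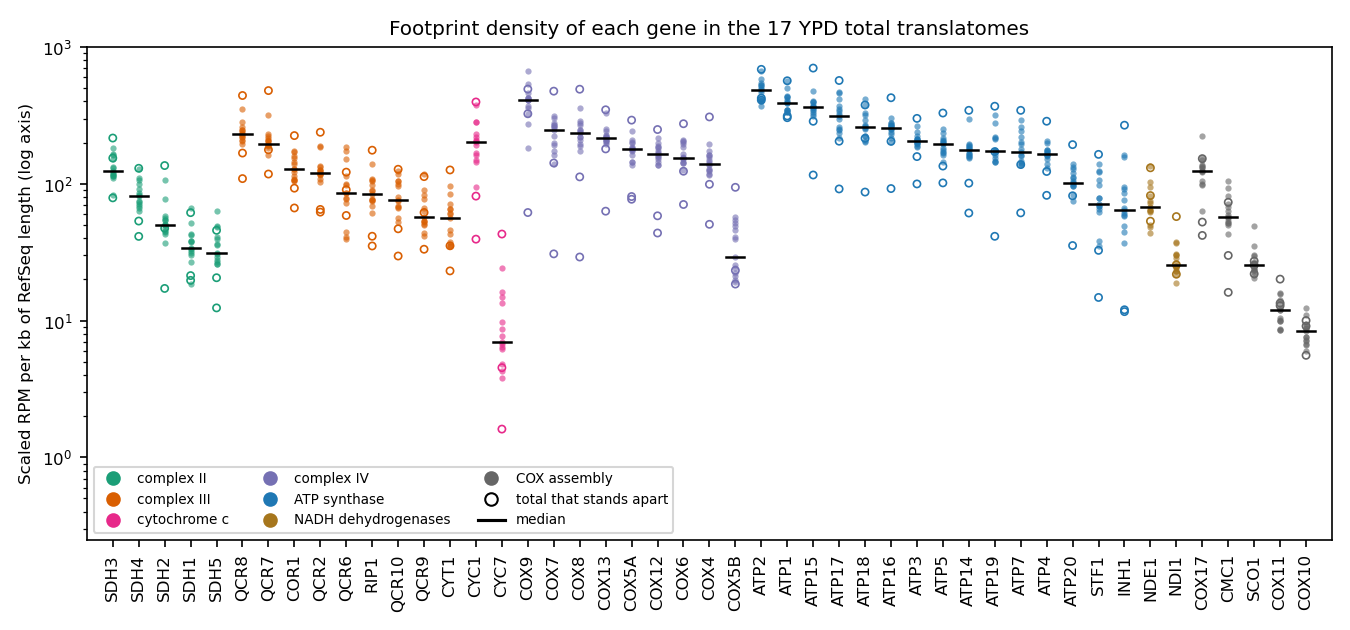
Scaled RPM per kb of RefSeq length (log axis) of each of the 47 genes, grouped by complex, in the 17 YPD totals; dots are libraries, open circles the 3 totals that stand apart, bars medians. ATP2 has the highest median (486.5) and CYC7 the lowest (6.91).

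Isoform pairs differed widely in level. CYC1, iso-1-cytochrome c, had a median of 203 scaled RPM per kb in YPD totals and CYC7, iso-2-cytochrome c, 6.91. CYC7 thus stood at 4.47% of CYC1 (2.19% to 10.8%, and at most 7.27% without the 3 totals that stand apart). COX5A, the aerobic form of subunit V of complex IV, had 179 and COX5B, the hypoxic form, 29.0, which is 20.2% of COX5A (10.6% to 37.6%). The ranges of the isoforms did not overlap in the COX5 pair without the 3 totals that stand apart. CYC7 is thinly covered, with 1.00 to 99.4 implied reads in the YPD totals.

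Across YPD totals the level of the 47 genes differed between libraries. Their summed level had a lowest value of 2379, a median of 4202 and a highest of 7043 scaled RPM. The lowest was GUS1-GFP total 1, followed by PFK1-GFP total 1 at 3178, and the highest was FAS1-GFP total 2; the other 14 lay between 3803 and 5658, the top of which was PFK2-GFP total 2. The median SD of a member over the 17 totals was 0.50 log2, against 0.32 for all 4977 features at a mean of at least 5 scaled RPM, and it was 0.29 against 0.26 without the 3 totals that stand apart. INH1 had the largest SD (1.06, and 0.59 without those totals), while ATP1 and ATP2 had the smallest (0.27 and 0.26). The 12 genes with a RefSeq length under 300 nucleotides gave 5.73% of the sum in GUS1-GFP total 1 and 10.6% in PFK1-GFP total 1. Their share was 11.1% to 16.2% in the 14 others and 13.3% in FAS1-GFP total 2.

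**Figure D2:**
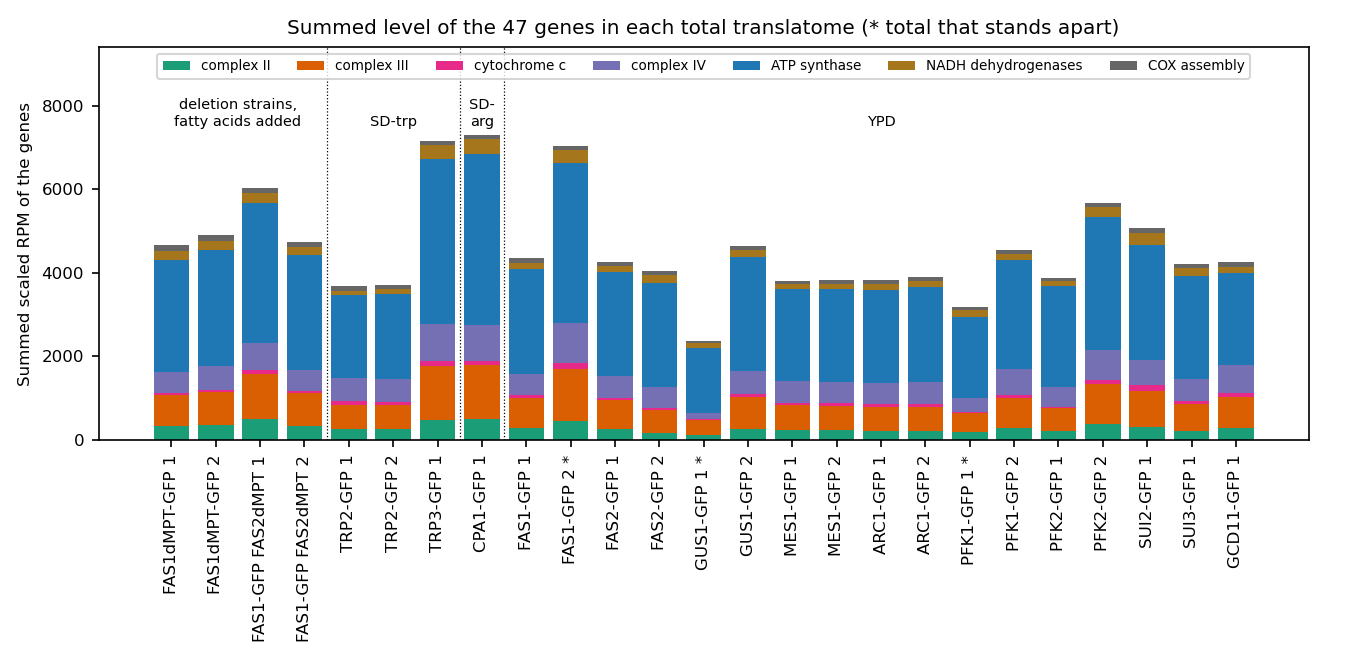
Summed scaled RPM of the 47 genes in each of the 25 totals, stacked by complex (bars start at 0); the deletion strains come first, then SD-trp, SD-arg and YPD, and asterisks mark totals that stand apart. TRP3-GFP, CPA1-GFP and FAS1-GFP total 2 reach 7162, 7301 and 7043, and GUS1-GFP total 1 is lowest at 2379.

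Totals in SD-trp did not form a uniform group for these genes. The summed level was 3688 and 3707 scaled RPM in the TRP2-GFP totals and 7162 in the TRP3-GFP total, against 2379 to 7043 in YPD. Both TRP2-GFP values lie at the low end of YPD and the TRP3-GFP value above all YPD totals. A call asks for an adjusted p under 0.05 in limma together with a log2 difference of 1 or more in size. In limma 0 of 47 members and 0 of 5040 features (0% in each direction) were called, with 1 member and 408 features at an unadjusted p below 0.05. The members had a median log2 difference of 0.25, against 0.02 for all features, and 38 of 47 were above 0. Set against YPD one strain at a time, a comparison chosen after seeing the data, 19 of 46 members were above 0 in TRP2-GFP (median -0.12) and 46 of 46 in TRP3-GFP (median 0.80). TRP3-GFP has 1 total, whose spread is taken from the other groups, and limma called 0 of 4991 features in either strain, so the absence of member calls there tells little. The mating pattern also differed between these strains, so medium, strain and mating type cannot be told apart.

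The largest differences in SD-trp were small. COX7, a small subunit of complex IV, had 51.2 and 63.1 scaled RPM in the TRP2-GFP totals and 74.5 in the TRP3-GFP total, against a lowest of 5.62, a median of 45.6 and a highest of 87.0 in YPD, a log2 difference of 0.69 ± 0.42 (SE; limma adjusted p = 0.628). SDH4, a membrane anchor of complex II, had 72.6, 65.1 and 77.0, against 22.5, 44.1 and 70.9 in YPD, 0.68 ± 0.24 (limma adjusted p = 0.609). ATP17, subunit f of the ATP synthase, had 0.59 ± 0.31 and CYC1 had 0.53 ± 0.42 (limma adjusted p = 0.609 and 0.698). All 4 genes overlapped between SD-trp and YPD. COX5A had 0.30 and CYC7 0.30, and COX5B stood at 10.2 and 8.37 scaled RPM in TRP2-GFP and 54.9 in TRP3-GFP, against 10.05, 15.8 and 51.2 in YPD. The COX5B values lie near or below the lowest YPD total in TRP2-GFP and above the highest in TRP3-GFP, and its log2 difference was -0.09 in SD-trp as a whole, -0.90 in TRP2-GFP and 1.54 in TRP3-GFP. Within totals with the MATalpha pattern, 2 from SD-trp and 3 from YPD, COX5B was called lower (-1.24, limma adjusted p = 0.0481). Both of these SD-trp totals are of TRP2-GFP, and the YPD totals are of FAS1-GFP and FAS2-GFP, so strain and medium cannot be told apart. The share of all features called lower in that subset is given in the closing section. The SD-arg total of CPA1-GFP, given as values with no test, had the highest sum of all totals at 7301, close to TRP3-GFP. The SD-trp and deletion comparisons share the YPD totals.

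In the MPT deletion strains 3 members were higher than in YPD in both strains: an inhibitor of the ATP synthase, the minor cytochrome c and the factor that attaches flavin to complex II. STF1 (YDL130W-A), an inhibitor of ATP hydrolysis by the ATP synthase, had 79.4 and 80.2 scaled RPM in FAS1dMPT-GFP and 99.3 and 90.02 in the totals of FAS1-GFP FAS2dMPT, against a lowest of 3.85, a median of 18.4 and a highest of 42.8 in the YPD totals. No YPD total reached the deletion strains. It rose by 2.07 ± 0.58 log2 in FAS1dMPT-GFP and 2.31 ± 0.58 in FAS1-GFP FAS2dMPT (SE; limma adjusted p = 0.0174 and 0.00568). CYC7 (YEL039C) had 11.9 and 14.1 scaled RPM in FAS1dMPT-GFP and 13.97 and 15.8 in FAS1-GFP FAS2dMPT, against 0.550, 2.36 and 14.7 in YPD. FAS1-GFP total 2 gave the highest YPD value, and without the totals that stand apart the highest was 8.31. CYC7 was higher by 1.83 ± 0.61 and 2.01 ± 0.61 log2 (limma adjusted p = 0.0437 and 0.0189). It reached the filter, a mean of at least 5 scaled RPM over the libraries fitted, only through its values in the deletion strains. Its call is therefore no support for a rise of the members. SDH5 (YOL071W) had 37.4 and 40.01 in FAS1dMPT-GFP and 47.1 and 34.4 in FAS1-GFP FAS2dMPT, against 6.05, 15.3 and 30.7 in YPD, so the groups did not overlap. Its log2 differences were 1.23 ± 0.33 and 1.28 ± 0.33 (limma adjusted p = 0.0143 and 0.0071).

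In all, 5 of 47 members (10.6%) were called higher in FAS1dMPT-GFP, where 5.3% of 5040 features were, and 0 lower, where 1.15% were (6 members at an unadjusted p below 0.05 in either direction). This count, like that of the other deletion strain below, includes CYC7, which passed the filter only through the deletion totals. The further members were ATP15, the epsilon subunit of the ATP synthase stalk, and the copper chaperone COX17. ATP15 had 188 and 128 scaled RPM in FAS1dMPT-GFP, against 21.9, 68.8 and 132.5 in YPD, a difference of 1.21 ± 0.36 log2 (SE; limma adjusted p = 0.0260). COX17 had 49.1 and 53.8, against 8.80, 26.0 and 47.2 in YPD, 1.09 ± 0.36 log2 (limma adjusted p = 0.0440). The ATP15 values overlap YPD through FAS1-GFP total 2 alone, since the highest of the 14 others was 90.5, and the COX17 values do not overlap. In FAS1-GFP FAS2dMPT 5 of 47 (10.6%) were called higher, where 6.41% of features were, and 0 lower, where 1.83% were (11 members at an unadjusted p below 0.05). There SDH4 had 128 and 76.7 scaled RPM, against 22.5, 44.1 and 70.9 in YPD (1.15 ± 0.28 log2; limma adjusted p = 0.00511), and NDI1, the NADH dehydrogenase of the matrix side, had 102 and 75.0, against 29.0, 39.4 and 88.8 (1.02 ± 0.30; limma adjusted p = 0.0172). SDH4 did not overlap, and NDI1 overlapped through FAS1-GFP total 2. ATP15 and COX17 had log2 differences of 0.62 and 0.96 in this strain, and QCR6 and ATP18 had 1.07 and 0.96; these 4 were not called.

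**Figure D3:**
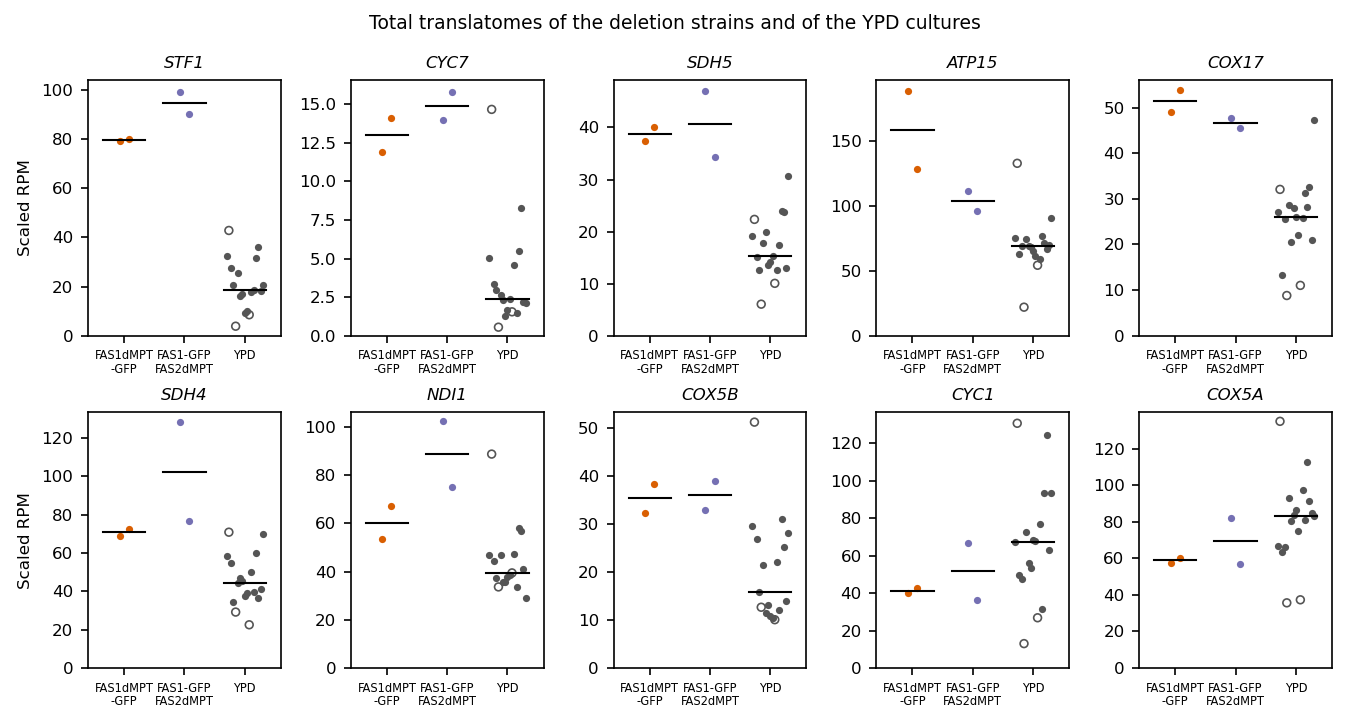
Scaled RPM of 10 genes in the totals of FAS1dMPT-GFP (2), FAS1-GFP FAS2dMPT (2) and the YPD cultures (17); dots are libraries, open circles the 3 YPD totals that stand apart, bars medians. STF1 and SDH5 lie above all YPD totals in both deletion strains, while CYC1 and COX5A lie within the YPD range.

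The main isoforms of cytochrome c and of subunit V were not called in the deletion strains. CYC1 had 39.8 and 42.6 scaled RPM in FAS1dMPT-GFP and 67.0 and 36.4 in FAS1-GFP FAS2dMPT, against 12.99, 67.1 and 131 in YPD (log2 -0.51 and -0.25, not called). COX5A had 57.6 and 60.0, and 82.0 and 56.7, against 35.6, 82.9 and 135 in YPD (-0.38 and -0.17, not called, and 0.03 and 0.05 with no further scaling). All these values lie within the YPD range. COX5B had 32.3 and 38.3, and 32.9 and 39.1, against 10.05, 15.8 and 51.2 in YPD (0.91 ± 0.52 and 0.94 ± 0.52; limma adjusted p = 0.252 and 0.210). Per length CYC7 was 28.9% and 32.0% of CYC1 in FAS1dMPT-GFP and 20.1% and 41.9% in FAS1-GFP FAS2dMPT, against at most 10.8% in YPD. COX5B was 47.6% and 54.3%, and 34.1% and 58.6%, of COX5A, against at most 37.6% in YPD.

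By complex, all 5 genes of complex II had positive differences in both deletion strains (0.29 to 1.23 in FAS1dMPT-GFP and 0.44 to 1.28 in FAS1-GFP FAS2dMPT, 1 and 2 called). Complex III had medians of 0.39 and 0.53 over 9 genes, complex IV 0.18 and 0.23 over 9, and the ATP synthase 0.10 and 0.26 over 15. The median over all 47 was 0.29 and 0.41, against 0.02 and 0.03 for all features. INH1, the other inhibitor of ATP hydrolysis, had 0.75 ± 0.73 and 1.63 ± 0.73 (limma adjusted p = 0.541 and 0.119). The summed level of the 47 genes was 4658 and 4894 in FAS1dMPT-GFP and 6027 and 4747 in FAS1-GFP FAS2dMPT, against 2379 to 7043 in YPD and 3803 to 5658 without the totals that stand apart, so the 6027 lies above all of these 14.

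Other lists of genes of respiratory metabolism are described by counts and were not tested as sets. Of all 5040 features, 5.3% were called higher in FAS1dMPT-GFP and 6.41% in FAS1-GFP FAS2dMPT, and 1.15% and 1.83% lower. Against these shares, 3 of 40 assembly factors tested were called higher in each deletion strain and 0 lower. COA6 (1.16 and 1.12) and SCO2 (1.16 and 1.11), of complex IV assembly, were called in both. CBP4 (1.03), of complex III assembly, was called in FAS1dMPT-GFP, and SDH8 (1.22), of complex II assembly, in FAS1-GFP FAS2dMPT. Of 8 glucose-repressed carbon genes tested, 2 were called higher in FAS1dMPT-GFP, ADR1 (2.35), a regulator, and MPC3 (2.23), of the mitochondrial pyruvate carrier, and 5 in FAS1-GFP FAS2dMPT, ADR1 (2.78), MPC3 (2.47), ALD4 (1.79), GUT2 (1.69) and the regulator CAT8 (1.56). The summed level of that list, 18 genes, was 1764 and 1758 scaled RPM in FAS1dMPT-GFP and 2432 and 1876 in FAS1-GFP FAS2dMPT, against 1037 to 2815 in YPD. HAP1, a heme-responsive activator of respiratory genes, was called in FAS1-GFP FAS2dMPT (1.66), 1 of 5 HAP regulators tested there and 0 in FAS1dMPT-GFP. The summed level of the 5 was uneven between replicates. It was 1109 and 584 scaled RPM in the FAS1-GFP FAS2dMPT totals and 1280 and 205 in the TRP2-GFP totals, against 196 to 592 in YPD. NCA3 (3.97 and 3.73) was the 1 gene called of 16 translational activators. Of 10 hypoxic genes OLE1, the fatty acid desaturase, was called higher (1.72 and 1.55) and AAC3, an ADP/ATP carrier, lower (-1.67 and -1.46). Of 8 carriers OAC1 was called lower in both (-1.33 and -2.10) and CTP1 in FAS1-GFP FAS2dMPT (-1.08).

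These calls depend on few libraries. Each deletion strain has 2 totals: without FAS1dMPT-GFP total 1 or total 2 the 5 calls became 0, without FAS1-GFP FAS2dMPT total 1 they became 0 and without its total 2 they became 2 (SDH5 and SDH4), and with the FAS1-GFP totals alone as control, of which total 2 stands apart, they became 0 in both strains. Deletion and added fatty acids cannot be told apart, and of the FAS1-GFP FAS2dMPT totals only total 1 has the MATalpha pattern. All deletion libraries come from files that list coordinates from low to high, as do 6 YPD totals. Within those files 4 and 5 members were called higher. Without the 3 YPD totals that stand apart, 4 and 6 were, and with FAS1-GFP FAS2dMPT IP 2 in place of total 2, 5 were in that strain. The share of all features called higher was 5.3% and 6.41% in the main fits. For these refits it is not given here, so their member counts have no background of their own. The split of calls over all features depended on the scaling, from 267 higher and 58 lower in FAS1dMPT-GFP to 456 and 29 with equal totals over nuclear genes and 610 and 25 with no further scaling, and from 323 and 92 in FAS1-GFP FAS2dMPT to 497 and 50 and 423 and 51, at median shifts of 0.30, 0.42, 0.29 and 0.24; relative to that shift the members' median was 0.27 to 0.29 and 0.38 to 0.39.

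The summed level of these genes was lower in the IP than in the total in 19 of 21 pairs of the same strain and replicate number. The exceptions were both TRP2-GFP pairs, with 4217 and 4042 scaled RPM in the IPs, against 3688 and 3707 in the totals. The IPs and totals of TRP2-GFP also differ in their mating-type genes. Taking the 13 strains whose tagged subunit is complete, 40 of the 46 members tested had a negative mean log2 difference of IP minus total (36 with equal totals over nuclear genes and 45 with no further scaling). Their median was -0.53, against -0.02 for all 5099 features, of which 2449 were above 0. CYC7, at a mean of 3.61 scaled RPM, did not pass the filter. The summed level of the 47 genes had a lowest of 1898, a median of 3362 and a highest of 7168 scaled RPM in the 21 IPs, against 2379, 4202 and 7301 in the 21 totals. In limma 3 of 46 members (6.52%) were called lower, where 0.255% of features were, and 0 of 46 higher, where 4.51% were, with 37 members at an unadjusted p below 0.05.

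The members that fell are 2 small subunits of complex IV and cytochrome c. COX7 (YMR256C, chromosome XIII, 778945 to 779127 in the deposited files) had 3.83, 18.6 and 38.5 scaled RPM as lowest, median and highest of 21 IPs, against 5.62, 48.0 and 87.0 in 21 totals. The ranges overlapped, but the IP was below the total of the same strain and replicate number in 21 of 21 pairs. Its log2 difference was -1.20 ± 0.14 (SE over 13 strains; limma adjusted p = 8.65e-07). COX9 (YDL067C), subunit VIIa, had 14.1, 32.9 and 64.2 in IPs, against 11.1, 76.0 and 121.0 in totals (-1.07 ± 0.17; limma adjusted p = 1.63e-05), and was below 0 in 12 of 13 strains, SUI2-GFP being the exception at 0.06. CYC1 (YJR048W) had 10.9, 36.0 and 61.7, against 12.99, 68.6 and 131 (-1.004 ± 0.14; limma adjusted p = 5.13e-06), and was below 0 in 13 of 13 strains. CYC1 lies at the threshold: it was not called without the strain FAS1-GFP, FAS2-GFP, ARC1-GFP, TRP3-GFP, SUI2-GFP or GCD11-GFP (nearest to 0 without GCD11-GFP, at -0.89), nor without PFK1-GFP pair 1 (-0.97) or all 3 pairs that stand apart (-0.91), and without GCD11-GFP COX9 was not called either (-0.93). With equal totals over nuclear genes all 3 missed the size asked (COX7 at -0.96), and with a pseudocount of 5 COX7 alone was called.

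Further low members had smaller differences. ATP17, a membrane subunit of the ATP synthase, had 20.6, 59.1 and 103.6 scaled RPM in IPs, against 28.05, 103.65 and 174 in totals, and its IP was lower in 21 of 21 pairs (-0.89 ± 0.09 log2). SDH5 had -0.84 ± 0.18, COX8, a small subunit of complex IV, -0.83 ± 0.12 and COX5A -0.82 ± 0.10, each below 0 in 13 of 13 strains. COX5B had -0.31 ± 0.16 and was below 0 in 11 strains. These 5 differences miss the size asked of a call.

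At the other end stood the assembly factor COX10 (YPL172C), the only member above 0 in 13 of 13 strains. It had 8.40, 18.5 and 31.9 scaled RPM in IPs, against 7.73, 11.4 and 17.02 in totals, and was higher in the IP in 18 of 21 pairs. Its log2 difference of 0.55 ± 0.11 had a limma adjusted p of 0.000161 but is under the size asked of a call. SDH1, the flavoprotein of complex II, had 0.16, COX11 0.13, QCR6, an acidic subunit of complex III, 0.13, ATP2 0.09 and NDE1 0.0027. Each of these 5 was above 0 in 5 to 8 of 13 strains, and with no further scaling all 5 were below 0.

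By complex the medians were -0.76 for complex IV (9 of 9 genes below 0), -0.59 for the ATP synthase (14 of 15), -0.47 for complex II (4 of 5) and complex III (8 of 9), -0.24 for the assembly factors (3 of 5) and -0.03 for the NADH dehydrogenases (1 of 2). Median RefSeq length was 390 nucleotides in complex IV, 375 in the ATP synthase, 444 in complex III and 597 in complex II. It was 888 in the assembly factors and 1612.5 in the NADH dehydrogenases, so the complexes with the shortest genes had the lowest medians. The lengths of QCR9, QCR10 and COX5B include an intron.

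**Figure D4:**
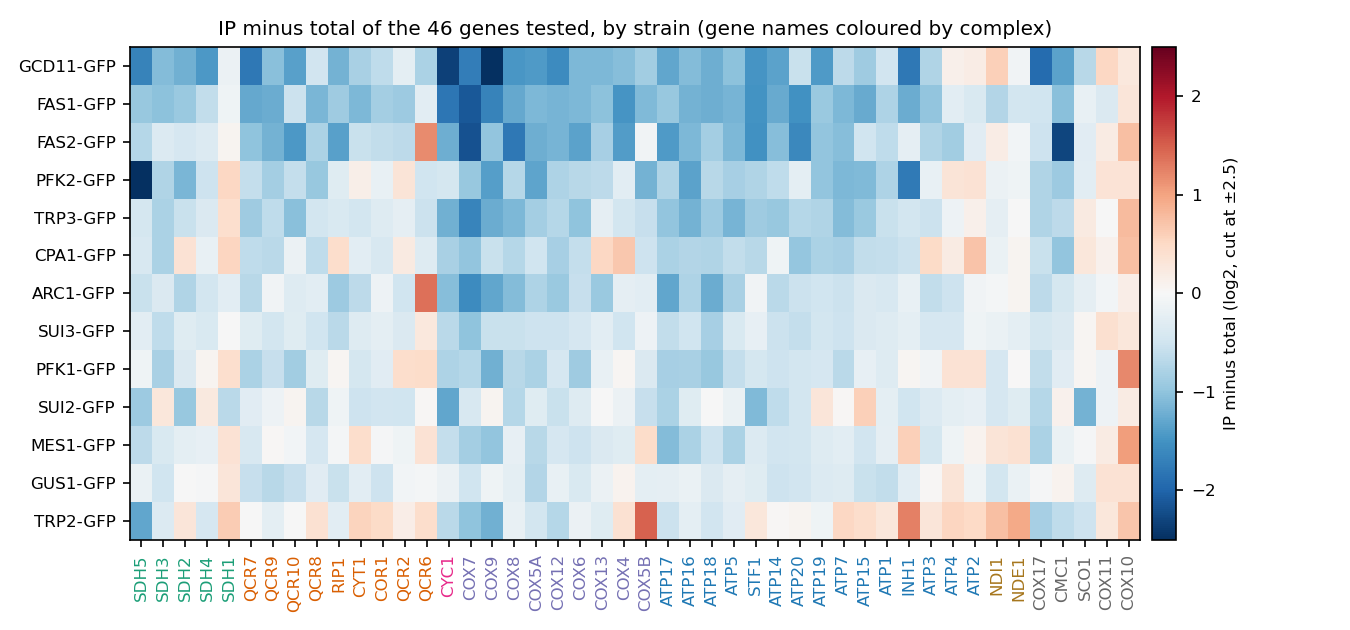
IP minus total (log2, colour scale cut at 2.5 in either direction) of the 46 genes tested, in columns grouped by complex, in each of the 13 full-length strains, in rows ordered by their median. Blue is lower in the IP; COX7, CYC1 and COX5A are blue in 13 of 13 strains, COX10 is red in 13 of 13, and TRP2-GFP, at the bottom, has a median of 0.02.

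Most of these genes are short, and over the 13 strains short features as a whole were lower in the IPs. SUI2-GFP was an exception, with a median of 0.04 for other features under 600 nucleotides. Its IP was closest to a total, SUI3-GFP total 1 (r = 0.978). The members span 180 to 1923 nucleotides with a median of 462, against 1188 for nuclear RefSeq genes. The 12 members under 300 nucleotides had a median of -0.70 (12 of 12 below 0), against -0.66 for the 110 other features of that length, of which 91.8% were below 0. The 18 tested from 300 to 599 nucleotides had -0.66 (17 below 0), against -0.52 for 550 others. QCR9 and COX5B are counted there at RefSeq lengths that include an intron, so their class is uncertain. The 9 from 600 to 1199 had -0.33 (8 below 0), against -0.24 for 1626 others. The 7 of 1200 or more had 0.0027 (3 below 0), against 0.21 for 2714 others. In each class the members' median thus lay 0.04 to 0.21 below that of other features of the class. Strain by strain, it lay below theirs in 7, 10, 7 and 11 of 13 strains, from the shortest class to the longest, a difference given here with no test.

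COX7 and COX9, at 183 and 180 nucleotides, lie below the 10th percentile of other features of their class, while INH1 (258 nucleotides, -0.41) and ATP18 (180 nucleotides, -0.77) show the spread at that length. COX10 (1389 nucleotides) lies above its class median and ATP1 (1638 nucleotides, -0.43) below it. QCR6 (444 nucleotides) was the 1 member of 300 to 599 nucleotides above 0.

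**Figure D5:**
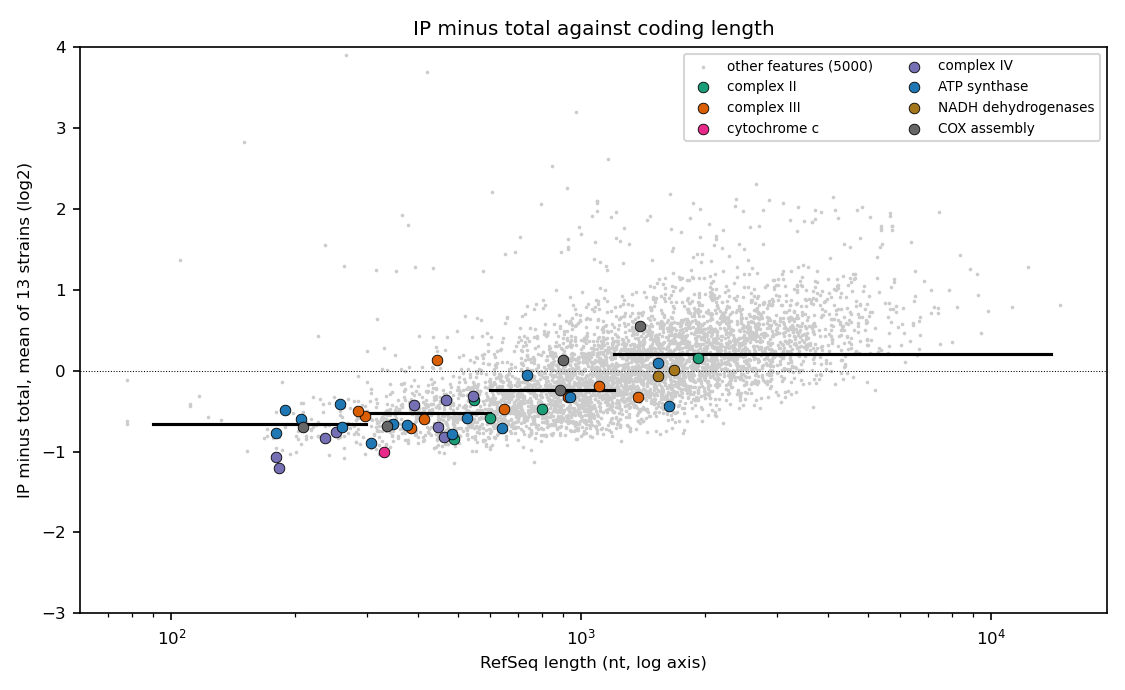
Mean IP minus total over 13 strains (log2) against RefSeq length (nucleotides, log axis) for 46 members, coloured by complex, and 5000 other features in grey, of which 3 lie outside the axis; horizontal bars are medians of the other features in 4 length classes. The medians of the members are -0.70, -0.66, -0.33 and 0.0027 from the shortest to the longest class.

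The size of the difference varied between strains. The members' median was lowest in GCD11-GFP (-1.08) and FAS1-GFP (-1.04), the second resting on its pair 2, whose total stands apart, followed by FAS2-GFP (-0.84) and PFK2-GFP (-0.69), and highest in TRP2-GFP (0.02), where 23 of 46 members were above 0. In FAS1-GFP pair 1 alone the members' median was -0.40 with 40 of 46 below 0, and in pair 2 it was -1.53 with 46 of 46. Their summed level in FAS1-GFP was 3393 scaled RPM in IP 1 and 2880 in IP 2, against 4343 in total 1 and 7043 in total 2. In 12 of 13 strains the median lay below the median of all features. The exception was TRP2-GFP, whose IPs and totals differ in their mating-type genes. In GUS1-GFP it was -0.25 and in PFK1-GFP -0.38, each with a total that resembles an IP, and PFK1-GFP had -0.68 in pair 1, which holds that total, and -0.12 in pair 2. Without the 3 pairs that stand apart the median over strains was -0.44, with 39 of 46 below 0 and 2 called lower. A test of differences among the 8 replicated full-length strains called 0 of 46 members in limma, where 0.273% of 5135 features were called, with 4 members at an unadjusted p below 0.05 and QCR6 nearest (limma adjusted p = 0.258).

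Within strains, 6 member calls were made by limma, all in FAS2-GFP and PFK2-GFP. In FAS2-GFP 3 of 46 (6.52%) were lower, where 4.05% of 5135 features were, and 1 higher (2.17%), where 2.1% were. COX7 had 4.73 and 12.3 scaled RPM in the IPs, against 29.6 and 49.4 in the totals (log2 -2.17 ± 0.63), and CMC1, a factor of complex IV assembly, had 4.003 and 8.65, against 31.1 and 35.1 (-2.29 ± 0.43). ATP20, subunit g of the ATP synthase, had 9.46 and 21.9, against 44.6 and 48.4 (-1.62 ± 0.47), and QCR6 had 61.3 and 64.9, against 38.2 and 19.6 (1.17 ± 0.36). The IPs and totals did not overlap for any of these 4 genes, and limma adjusted p ran from 0.0234 to 0.0429. In PFK2-GFP 2 of 46 (4.35%) were lower, where 3.06% were, and 0 higher, where 7.24% were. SDH5 was listed at 0 in IP 1, the shallowest library at 0.544 M reads, where a count of 0 allows up to 6.92 scaled RPM (3 reads; counting error only), and at 8.46 in IP 2, against 17.5 and 23.9 in the totals. Its log2 difference was -2.80 ± 0.67 with the listed 0 and -1.31 with IP 1 at that limit. ATP16 had 43.8 and 55.4, against 130 and 121 (-1.33 ± 0.43). Neither overlapped, at limma adjusted p of 0.00929 and 0.0416. The 4 calls of FAS2-GFP became 0 without its IP 1 or total 2 and 2 without its total 1, and the 2 of PFK2-GFP became 0 without its IP 1 or total 2 and 1 without its total 1.

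In ARC1-GFP, FAS1-GFP, GUS1-GFP, MES1-GFP, PFK1-GFP, TRP2-GFP and both deletion strains limma called 0 members, with between 0 and 20 at an unadjusted p below 0.05, the most in FAS1-GFP. The share of features called higher and lower was 0.0195% and 0% in ARC1-GFP and in FAS1-GFP, 0.0389% and 0% in GUS1-GFP, 0.0779% and 0% in MES1-GFP, 1.91% and 2.26% in TRP2-GFP, and 0% both ways in PFK1-GFP and the deletion strains. These fits had no replicate block, and with one, members were called in ARC1-GFP, FAS1-GFP, MES1-GFP and TRP2-GFP too. FAS1dMPT-GFP IP 1 was closest to its own total (r = 0.992, against 0.921 between IP 2 and total 2). The absence of calls in that strain therefore tells little. In FAS1-GFP 45 of 46 members were below 0 and the median of all 46 was -1.04. The members called there depended on the scaling: 9 with equal totals over nuclear genes, where 2.89% of all features were called, and 43 with no further scaling, where 51.1% were. Without PFK1-GFP IP 2, 11 members were called in that strain, and 17.6% of all features. In TRP2-GFP COX5B had the highest value of any member, 1.47, and SDH5 the lowest, -1.31.

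Of other respiratory genes, 1 of 39 assembly factors was called lower over the 13 strains, CBP6 (-1.14), an activator of cytochrome b synthesis, and 0 higher, and the list's median was -0.33. The 16 translational activators had a median of 0.37 with 0 called in either direction. Of 8 glucose-repressed genes GUT1 (1.66) and ICL1 (1.21) were called higher, and HAP1 (1.15) was called higher of 5 HAP regulators. Among 10 hypoxic genes and 8 carriers 0 were called, at medians of -0.37 and -0.13. Over all features 230 were called higher and 13 lower, 434 and 0 with equal totals over nuclear genes and 91 and 303 with no further scaling, at medians of -0.02, 0.23 and -0.35; the members' median relative to these was -0.50, -0.50 and -0.48.

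ATP1 overlaps another listed feature by 251 bases on the opposite strand and ATP14 overlaps one by 32 on the same strand, so their values can include shared reads. All differences were taken between log2(value + 1) levels, and for low genes such as CYC7 that makes a change look smaller than it is.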

How the data were processed

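The submitters' processing notes name cutadapt 1.8.3 for adapter removal. Which aligner, genome build, strand setting and counting rule were used is not given in the sources used here. No header comes with the deposited tables, and their values were taken as RPM, since many low deposited values are multiples of 1 step per library. Implied reads are the inverse of that step. The share of values that came out as whole reads (within 0.01 read) was 13.4% to 75.6% per library, so counts were not recovered and no count test was used. Reads over the listed genes made up 37.8% to 94.3% of IPs and 73.0% to 96.5% of totals. Names and lengths come from the RefSeq table of assembly R64, which 5919 of 6605 features matched, all 47 members included. The 28 mitochondrial features were left out, since 19 libraries list all of them at 0.

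Scaling used trimmed means of log ratios with no weights (trims of 0.3 and 0.05), followed by log2(value + 1) and a filter that keeps features at a mean of at least 5 over the libraries fitted. Fits used limma 3.58.1 in R 4.3.3 with a trend and Benjamini-Hochberg adjustment over all features: 13 strain means of IP minus total, 40 libraries of 10 replicated strains, and 24 totals by medium or deletion. The step was tested on simulated data. A call needs an adjusted p under 0.05 and a log2 difference of 1 or more in size. Named are the 6 highest and 6 lowest members for IP, the 8 largest called members or the 4 largest of all for totals, the isoform pairs COX5A, COX5B, CYC1 and CYC7, and called genes of other lists up to 6. Further members are named to describe their complex. The members and lists were chosen with earlier results of these data known. Alternatives were other scalings, pseudocounts, filters, controls and libraries left out. Those added after seeing the data are the fits without the libraries that stand apart, by file layout and by SD-trp strain.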

Additional observations from a re-analysis of the deposited data

How the results depend on the processing

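Of 1065 alternative values, 940 kept their direction and side of the threshold (counts within 1.5 times). The cause of the others was not tested. The 940 include counts of 0 that stayed 0, as for members higher in SD-trp in 34 of 34 settings. They also include single members that stayed uncalled, so the 940 do not measure how firm the calls are. The deviations of same-numbered IPs and totals correlated from 0.0014 in ARC1-GFP to 0.83 in GUS1-GFP. They passed 0.1 in 9 of 10 strains, and pairing was taken only if every strain did, so the main fits did not use the numbers as pairs. Counts over pairs of the same number are descriptions, and replicated strains enter them more than once. The labels do not say whether they mark shared cultures. With a replicate block the members called of 46 were 6 in ARC1-GFP (9.04% of all features called), 25 in FAS1-GFP (10.7%), 20 in FAS2-GFP (18.7%), 1 in MES1-GFP (9.81%), 9 in PFK2-GFP (17.9%), 3 in TRP2-GFP (12.1%) and 4 in the test between strains (3.99%). With no further scaling 13 members were called lower over strains (6.17% of all features called lower), and 43 were called in FAS1-GFP (51.1% of all features called), 8 in FAS2-GFP (13.4%) and 1 in PFK2-GFP (6.62%). With equal totals over nuclear genes there were 0 over strains (0% called lower), 1 in ARC1-GFP (0.116% called), 9 in FAS1-GFP (2.89%), 4 in TRP2-GFP (7.1%) and 9 higher in FAS1-GFP FAS2dMPT totals (9.91% called higher). A pseudocount of 5 left 1 over strains. No filter gave 2 in FAS2-GFP, 1 in PFK2-GFP and 3 in FAS1dMPT-GFP totals, and a filter of 20 gave 1 in PFK2-GFP. The libraries of the strain alone gave 7 in ARC1-GFP (11.2% of all features called), 0 in FAS2-GFP (0%), 2 in MES1-GFP (11.7%), 0 in PFK2-GFP (0%) and 5 in TRP2-GFP (13.8%). Within the MATalpha pattern SD-trp had 1 lower (0.864% of all features). With FAS1-GFP totals as control both deletion strains had 0, and with file layout as a term, added after seeing the data, FAS1dMPT-GFP had 3.

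Leaving out 1 strain gave 1 to 3 members lower over strains. Leaving out 1 library, where a lone library is assumed to vary like the other groups, gave 0 to 2 in FAS1-GFP, 0 to 5 in FAS2-GFP, 0 to 11 in PFK1-GFP and 0 to 2 in PFK2-GFP, 0 to 0 higher in FAS1dMPT-GFP totals and 0 to 2 in FAS1-GFP FAS2dMPT totals.

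Directions turned for members near 0. With no further scaling IP minus total was -0.32 for NDE1, -0.23 for ATP2, -0.19 for QCR6, -0.16 for COX11 and -0.16 for SDH1, and COX5A was 0.035 and 0.053 in FAS1dMPT-GFP and FAS1-GFP FAS2dMPT totals. With equal totals COX5A was 0.10 and CYC1 0.018 in FAS1-GFP FAS2dMPT, and leaving out 1 of its totals they ran from -0.44 to 0.090 and from -0.68 to 0.18. Leaving out 1 strain NDE1 ran from -0.076 to 0.042. Against FAS1-GFP totals COX5B was -0.14 in FAS1dMPT-GFP and -0.12 in FAS1-GFP FAS2dMPT. In SD-trp, leaving out 1 total, COX5B ran from -0.90 (without TRP3-GFP) to 0.38 and CYC7 from -0.51 (without TRP3-GFP) to 0.73, and COX5B was 1.54 in TRP3-GFP alone. Depth limits CYC7, with 1.00 implied read in the thinnest total.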
